A study of Saccharomyces cerevisiae with 6 samples.

Results

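Nic96 peaks called in heat-shocked *tho* and *wt* budding yeast were placed on the genes of the genome, and each gene was sorted by whether a peak overlapped it in *tho* only, in both strains or in *wt* only. The genes were selected on the measured peak calls: a gene counted as overlapped when at least 1 bp of it lay under a nuclear peak with a q-value under 0.05. Of 6002 nuclear protein-coding genes of the R64 (sacCer3) assembly, 1077 (17.9%) were overlapped in at least 1 strain, namely 285 (4.75%) in *tho* only, 163 (2.72%) in both and 629 (10.5%) in *wt* only. Since those calls chose the genes, every value of the overlapping peaks is given here as a description.

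The study used chromatin immunoprecipitation and sequencing (ChIP-seq) of Nic96 in 6 samples, each of them 1 library, to map where the genome contacts nuclear pores. The *tho* strain carried Nic96-13myc-KanMX with *mft1::NatMX*, which deletes the gene of the THO subunit Mft1, and the *wt* strain carried Nic96-13myc-KanMX alone. Both were BY4742 haploids (*MATalpha*, with the markers his3Δ1, leu2Δ0, lys2Δ0 and ura3Δ0) that held the plasmid pRS313, grew exponentially at 25 °C in medium without histidine, and received a heat shock of 15 min at 37 °C before formaldehyde fixation and immunoprecipitation with an anti-Myc antibody. The untagged *tho* strain (*mft1::KanMX*) and the untagged *wt* strain, heat-shocked alike, served the authors as the controls of the peak calls, and the samples at 25 °C are not analysed here. With 1 library per strain, a gene listed in only 1 strain may differ between strains or may fall on either side of a detection limit, and these cannot be told apart.

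Nuclear pore complexes are large channels in the nuclear envelope, and Nic96 belongs to their inner ring scaffold. In yeast, several inducible genes are known to move to the pores when they are transcribed. The THO complex packages nascent mRNA during transcription elongation, and cells without it accumulate R-loops, in which the nascent RNA pairs with its DNA template. Heat shock switches on chaperone and trehalose genes, mainly through the factors Hsf1, which binds heat shock elements built of inverted GAA and TTC units, and Msn2 and Msn4, which bind stress response elements with the core AGGGG.

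Of the 33 heat shock genes described below, 8 held a heat shock element of 3 units (GAANNTTCNNGAA, or TTCNNGAANNTTC on the other strand) near the start codon. These were 3 of 5 with a peak in *tho* only, 2 of 13 in both, 2 of 8 in *wt* only and 1 of 7 without a peak. *SSA1*, *SSA4*, *HSP104* and *HSP82* held none by this rule. For those with a peak and the element, the stretches that hold it are printed on the strand of the gene, 5′ to 3′, from the R64 genome of RefSeq. Capitals mark the matches. The stretches of *FES1* (chrII:444832-444884, minus strand), *HSP60* (chrXII:665180-665232, minus strand) and *SSE1* (chrXVI:352429-352481, minus strand) belong to genes with a peak in *tho* only. Those of *SSA2* (chrXII:97686-97735, minus strand) and *STI1* (chrXV:380803-380869, plus strand) belong to genes with a peak in both, and those of *HSP42* (chrIV:806371-806415, plus strand) and *HSP78* (chrIV:974453-974493, minus strand) to genes with a peak in *wt* only.
FES1: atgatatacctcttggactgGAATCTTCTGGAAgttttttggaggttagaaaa
HSP60: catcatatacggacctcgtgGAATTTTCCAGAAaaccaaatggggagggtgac
SSE1: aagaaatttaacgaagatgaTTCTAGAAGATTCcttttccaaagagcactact
SSA2: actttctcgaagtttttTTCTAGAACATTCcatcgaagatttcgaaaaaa
STI1: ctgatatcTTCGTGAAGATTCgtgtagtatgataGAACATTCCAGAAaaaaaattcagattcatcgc
HSP42: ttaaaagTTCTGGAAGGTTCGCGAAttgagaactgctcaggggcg
HSP78: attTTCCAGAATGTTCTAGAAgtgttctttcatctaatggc

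The element was sought in the 300 bases that run from 250 before to 50 after the start codon. It was present in 9 of 285 genes with a peak in *tho* only (3.16%), in 5 of 163 with a peak in both (3.07%) and in 5 of 629 with a peak in *wt* only (0.795%), whereas 47 of all 6002 windows hold it (0.783%). Read the other way, 19.1% of the 47 genes with the element had a peak in *tho* only (9 genes, exact binomial 95% interval 9.15 to 33.3%), against 4.75% of all genes. Another 10.6% (5 genes, 3.55 to 23.1%) had peaks in both, against 2.72%, and 10.6% (5 genes) a peak in *wt* only, against 10.5%. The 9 genes of *tho* alone were *FES1*, *HSP60*, *SSE1*, *ANB1*, *CUE4*, *HMO1*, *LST8*, *PEP5* and *TAD2*, the last 4 of which were named after their values were seen. The core AGGGG of the stress response element, in either orientation, was present in 27.4% of the genes with a peak in *tho* only, 27.6% of those with a peak in both, 22.1% of those with a peak in *wt* only and 21.6% of all genes. The peaks themselves lay over the coding part and not over these promoter stretches in *FES1*, *HSP60* and *SSE1*, where they began 40, 1161 and 1700 bp after the start codon, while promoter stretches lie before it.

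In *tho*, 448 genes (7.46%) lay under a peak, and in *wt* 792 (13.2%). The 163 genes of both lists made up 36.4% of the *tho* genes (exact 95% interval 31.9 to 41.0%) and 20.6% of the *wt* genes (17.8 to 23.6%). The lists behind these counts were unequal, with 571 nuclear peaks in *tho* and 993 in *wt*, although they covered 3.36% and 3.85% of the nuclear genome, the median width being 449 bp for peaks in *tho* and 385 bp for peaks in *wt*. In *tho*, 167 of 571 peaks (29.2%) overlapped no protein-coding gene and 66 overlapped at least 2, up to 5 genes under 1 peak. In *wt*, 74 of 993 peaks (7.45%) overlapped no gene and 20 overlapped at least 2. Accordingly, 154 *tho* genes and 40 *wt* genes shared a peak with another gene.

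The share of genes in the classes with a *wt* peak was higher among long genes, and the share with a *tho* peak only was not. Genes with a peak in *tho* only had a median length of 1116 bp (exact 95% interval 957 to 1284 bp), close to the 1200 bp of all genes. Genes with a peak in both had a median of 2130 bp (1965 to 2538 bp) and genes with a peak in *wt* only one of 1809 bp (1716 to 1920 bp). Among the 2410 genes under 1000 bp, 5.52% had a peak in *tho* only, 0.954% in both and 4.85% in *wt* only. Among the 240 genes of 4000 bp and over, these shares were 3.75%, 15.8% and 25.0%. A longer gene offers more bases to overlap. A gene counts here from its start to its stop codon, introns included, since no untranslated region is annotated.

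**Figure D1:**
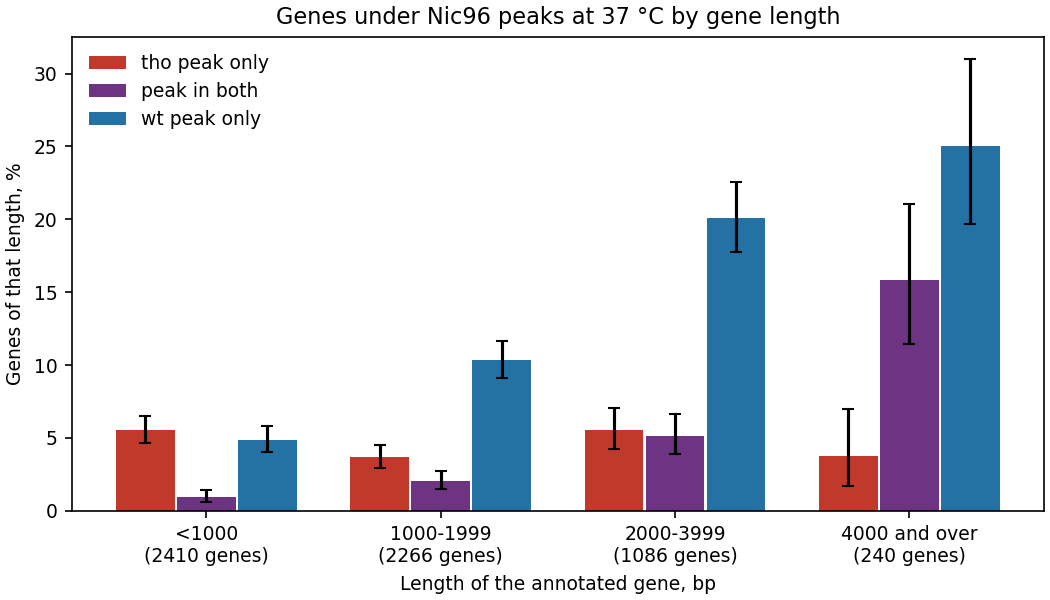
Share of the genes of each length (x axis, annotated gene length in bp, with the number of genes) that had a peak in *tho* only, in both or in *wt* only (y axis, % of those genes); bars give the share and error bars the exact 95% binomial interval, which covers counting of genes only. The *tho*-only share lies between 3.66 and 5.52% at all lengths, whereas the *wt*-only share is 4.85% below 1000 bp and 25.0% from 4000 bp. The share with a peak in both, which are *tho* genes too, is 0.954% below 1000 bp and 15.8% from 4000 bp.

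The genes also differed in where along them the peaks lay. In genes with a peak in *tho* only, *tho* peaks reached the last 100 bp of the gene in 62.1% and the first 100 bp in 48.1%. In genes with a peak in *wt* only, *wt* peaks reached the last 100 bp in 23.1% and the first 100 bp in 19.1%. In genes with peaks in both, the last 100 bp were reached by *tho* peaks in 71.2% and by *wt* peaks in 34.4%, and the first 100 bp by *tho* peaks in 35.6% and by *wt* peaks in 25.8%. Neither end was reached in 10.9% of the genes with a peak in *tho* only, whereas 63.4% of the genes with a peak in *wt* only had their peaks wholly between the ends. Within the 163 genes that carried peaks of both strains, *tho* peaks ran past the stop codon in 100 (61.3%, exact 95% interval 53.4 to 68.9%) and *wt* peaks in 26 (exact 95% interval 10.7 to 22.5%). The summit of at least 1 peak lay inside the gene for 59.6% of the *tho*-only genes, and for 96.5% of the *wt*-only genes. Wider peaks reach the ends of a gene more easily, and the part of peak width in these shares was not tested.

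**Figure D2:**
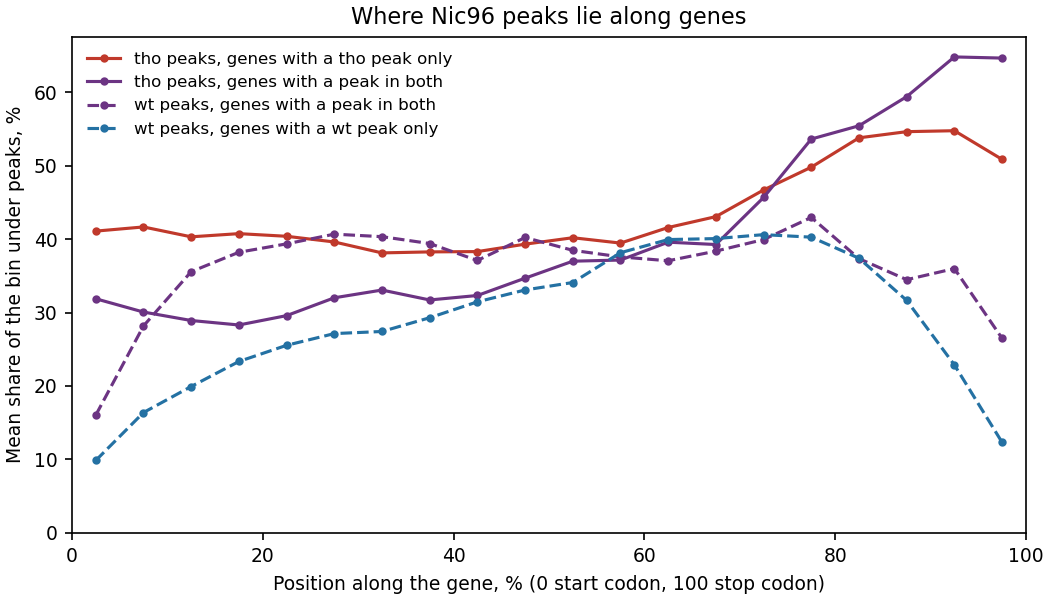
Mean share of each of 20 equal bins along the gene that lay under peaks (y axis, %) against position along the gene (x axis, 0 at the start codon and 100 at the stop codon, %), for *tho* peaks (solid lines) and *wt* peaks (dashed lines) in the classes named in the legend. In genes with a peak in both, the last bin is covered to 64.7% by *tho* peaks and to 26.5% by *wt* peaks, and in *wt*-only genes coverage drops towards both ends.

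Of all gene lists examined, that of the heat shock genes had the largest number of members under peaks. Of 33 chaperone, trehalose and other genes chosen for their known induction by heat, 5 had a peak in *tho* only (15.2%, exact 95% interval 5.11 to 31.9%, against 4.75% of all genes), 13 in both (39.4%, 22.9 to 57.9%, against 2.72%), 8 in *wt* only (24.2%, 11.1 to 42.3%, against 10.5%) and 7 in neither. The median length of the list was 1689 bp, and its members were chosen with earlier results of these data known. The 5 genes of *tho* alone were *FES1* and *SSE1*, which encode nucleotide exchange factors of cytosolic Hsp70, *HSP60*, the mitochondrial chaperonin, and *TPS1* and *TPS2*, the synthase and the phosphatase of trehalose formation. The 13 of both were the Hsp70 genes *SSA1*, *SSA2*, *SSA4* and mitochondrial *SSC1*, the Hsp90 genes *HSC82* and *HSP82* with their co-chaperones *STI1* and *AHA1*, the disaggregase *HSP104*, polyubiquitin *UBI4*, the cell wall protein *HSP150*, glycogen synthase *GSY2* and the trehalose synthase subunit *TSL1*. Those of *wt* alone were the small heat shock proteins *HSP26* and *HSP42*, *HSP12*, the mitochondrial disaggregase *HSP78*, Hsp70 *SSA3*, the Hsp40 genes *YDJ1* and *SIS1*, and the Hsp90 cyclophilin *CPR6*. Shares were lower in related annotated processes. Of 54 genes annotated to the cellular response to heat, 4 had a peak in *tho* only (7.41%), 3 in both (5.56%) and 9 in *wt* only (16.7%). Of 64 annotated to protein folding, the counts were 5 (7.81%), 8 (12.5%) and 11 (17.2%). The list of 33 includes 8 of the 54 and 15 of the 64.

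In most heat shock genes of the *tho* list, the peak reached the 3′ end. They ran past the stop codon in 4 of the 5 genes with a peak in *tho* only, *FES1* being the exception and *SSE1* passing it by 1 bp, against 129 of all 285 genes of that class (45.3%). They did so in 13 of the 13 genes with a peak in both, against 61.3% of that class, and *wt* peaks did so in 5 of these 13 (*SSA1*, *SSA2*, *SSA4*, *AHA1* and *HSP82*). In the 8 genes with a peak in *wt* only, the peak of *HSP12* alone did, against 7.31% of that class. Among the 13 genes with a peak in both, the *tho* peak also began before the start codon in 4 (*SSA1*, *SSC1*, *UBI4* and *TSL1*), against 30.7% of that class. At *SSA1*, *SSA4*, *AHA1* and *HSP82* the summit of the *tho* peak that ran past the stop codon lay outside the gene. *TPS2* (chromosome IV, 593893 to 596583, plus strand) was covered to 61.5% by a *tho* peak of 2288 bp that began 1036 bp after the start codon, with its summit at 2544 bp and a fold enrichment of 3.97. *TPS1* (chromosome II, 488905 to 490392, minus strand) had a *tho* peak of 514 bp over its last 252 bp (16.9% of the gene, fold enrichment 2.12), *SSE1* (chromosome XVI, 350194 to 352275, minus strand) one over its last 382 bp (18.3%, fold enrichment 1.89) and *HSP60* (chromosome XII, 663284 to 665002, minus strand) one over its last 558 bp (32.5%, fold enrichment 2.44). *FES1* (chromosome II, 443821 to 444693, minus strand) was overlapped in its 5′ part, with the lowest fold enrichment of the 5 (1.53). For *SSE1* and *FES1*, the nearest *wt* peak was 18710 and 24322 bp away, and for *TPS1* it was 1139 bp away on the 5′ side.

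Among the genes of both lists, *STI1* (chromosome XV, 381053 to 382822, plus strand) had a *tho* peak of 2565 bp that began 743 bp after the start codon (fold enrichment 5.42) and a *wt* peak of 335 bp between 257 and 591 bp after it (fold enrichment 1.55). The 2 peaks shared no base of the gene. *GSY2*, *HSP150* and *UBI4* likewise had their *wt* peak nearer the start codon than the *tho* summit. *UBI4* (chromosome XII, 64062 to 65207, minus strand) was covered whole by a *tho* peak of 1984 bp with its summit 1055 bp after the start codon, whereas the *wt* peak covered 69.0% of it with its summit at 355 bp. In *SSC1*, the *tho* peak of 4930 bp had its summit at 1768 bp and the 2 *wt* peaks had theirs at 1038 and 68 bp. Over all 13 genes, *tho* peaks covered a median of 56.7% of the gene and *wt* peaks 69.0%, and 7 of the 13 had more bases under *tho* peaks.

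**Figure D3:**
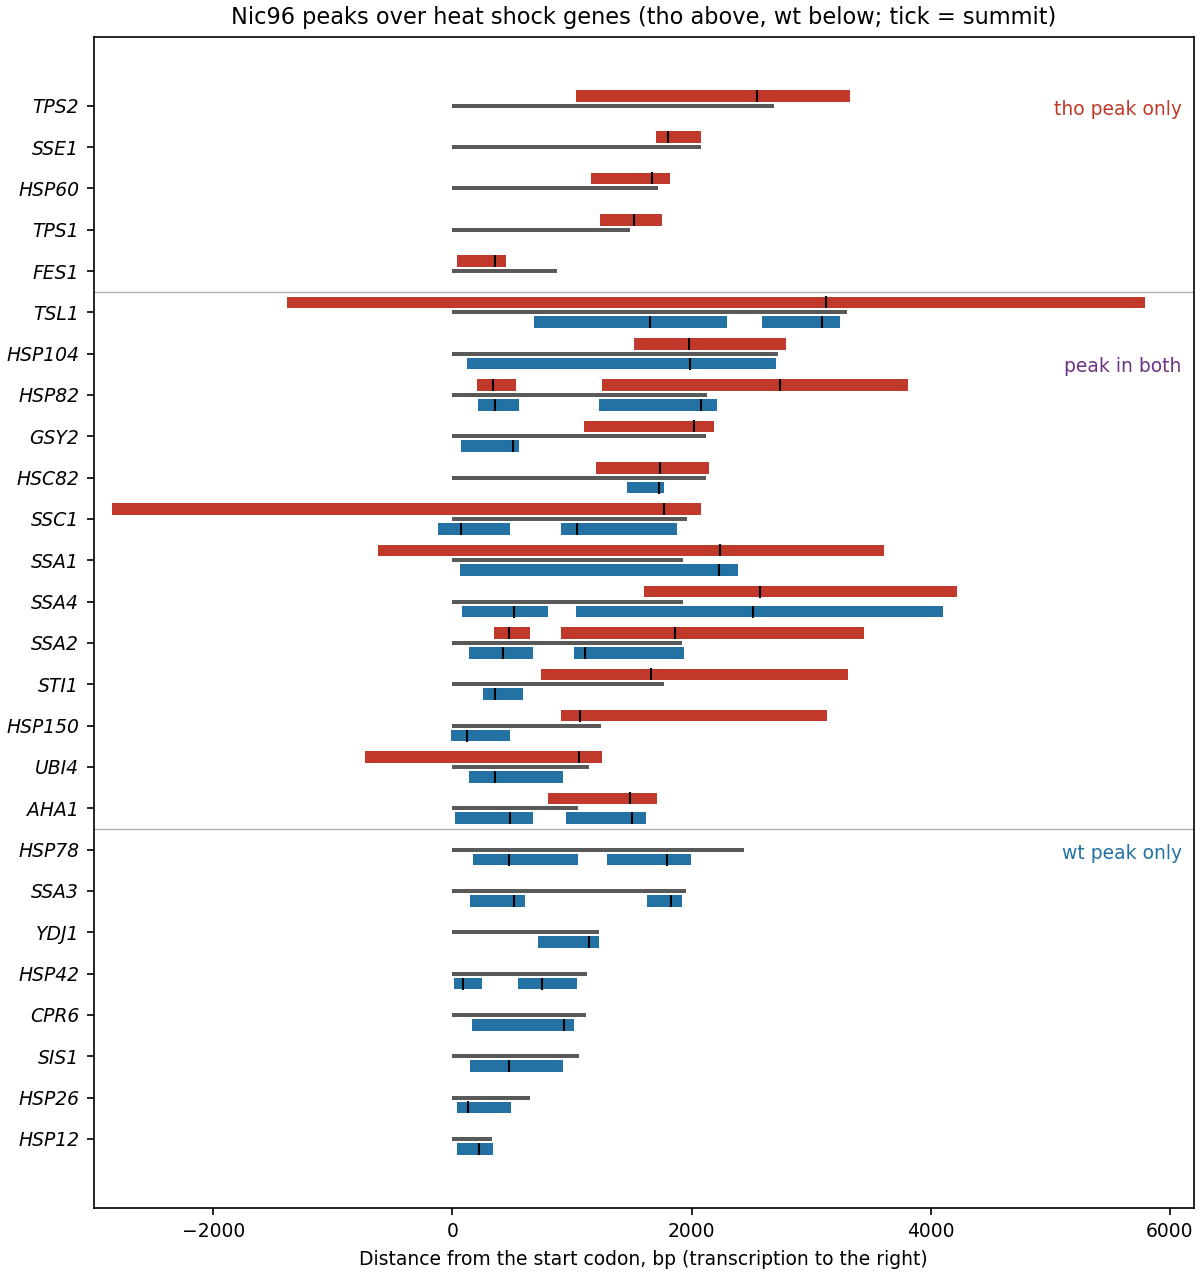
Nic96 peaks over the 26 heat shock genes with a peak, drawn by distance from the start codon (x axis, bp, transcription to the right); thin grey bars are genes, thick bars above them *tho* peaks and below them *wt* peaks, and ticks are summits. Genes are grouped as *tho* only, both and *wt* only. A *tho* peak of each of the 13 genes with a peak in both runs past the stop codon, and in 4 of them it also begins before the start codon.

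Several heat shock genes without a *tho* peak stood close to one. Of the 8 with a peak in *wt* only, 5 had a *tho* peak within 500 bp outside the gene, against 12.9% of all 629 genes of that class (81 genes). The *tho* peak lay 245 bp past the 3′ end of *SSA3* (fold enrichment 3.03, width 1817 bp), 363 bp past that of *HSP42* (4.87, 1809 bp) and 420 bp past that of *HSP78* (2.48, 347 bp), and 265 and 283 bp before the start of *CPR6* and *HSP26*. Inside the gene, *SSA3* (chromosome II, 84499 to 86448, minus strand) held *wt* peaks of 289 and 466 bp, *HSP42* (chromosome IV, 806621 to 807748, plus strand) *wt* peaks of 238 and 490 bp, and *HSP78* (chromosome IV, 971808 to 974243, minus strand) *wt* peaks of 702 and 871 bp, with fold enrichments of 1.74 to 2.50. *SIS1* had a *tho* peak 1031 bp away, *YDJ1* 2396 bp and *HSP12* 9177 bp. At *SSA3*, *HSP42* and *HSP78* the *tho* peak thus lay wholly past the stop codon and the *wt* peaks wholly before it. These *tho* peaks overlapped the next gene on the 3′ side, which had peaks in both strains. At *HSP42* it was the peak of *SUP35*, with its summit inside *SUP35*. At *SSA3* and *HSP78* the next gene stood 237 and 333 bp away, nearer than the peak.

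Where the 2 lists met in a gene, their summits could coincide almost to the base. The nearest *tho* and *wt* summits were within 100 bp of each other in 52 of 163 genes (31.9%, exact 95% interval 24.8 to 39.6%), and peaks of both lists shared bases of the gene in 117 (71.8%). In the other 46 genes the lists covered different parts. Windows from R64 around summits inside 5 of the genes with shared bases are printed on the strand of the gene, with the bases of the *tho* and the *wt* summit in capitals (a single capital where both are the same base): *HSP104* (chrXII:90578-90627, plus strand), *HSC82* (chrXIII:634060-634107, plus strand), *HSP82* (chrXVI:98250-98304, minus strand), *IRA2* (chrXV:174013-174053, plus strand) and *HXK1* (chrVI:253665-253726, minus strand).
HSP104: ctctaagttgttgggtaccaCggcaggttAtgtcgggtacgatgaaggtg
HSC82: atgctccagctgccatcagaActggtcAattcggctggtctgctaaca
HSP82: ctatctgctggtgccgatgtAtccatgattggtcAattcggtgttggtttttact
IRA2: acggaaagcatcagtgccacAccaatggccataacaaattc
HXK1: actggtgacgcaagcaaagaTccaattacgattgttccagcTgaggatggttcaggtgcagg

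The summits were 9 bp apart in *HSP104*, 7 bp in *HSC82*, 14 bp in *HSP82*, 0 bp in *IRA2* and 21 bp in *HXK1*, and fold enrichments at these summits were 1.97 in *tho* and 1.87 in *wt* for *HSP104*, 1.57 and 1.78 for *HSC82*, and 2.07 and 2.46 for *HSP82*. At *HSP82* these were not the strongest peaks. Its other *tho* peak, of 2564 bp, had its summit past the gene and a fold enrichment of 7.69. Its other *wt* peak had one of 2.76. *HSC82* and *HSP82* are close paralogs, of which 2.20% and 2.19% of the 75-mers occur again in the genome. *IRA2* (chromosome XV, 171070 to 180309, plus strand), a negative regulator of Ras, had 4 *tho* peaks over 63.2% and 6 *wt* peaks over 33.5% of its 9240 bp. The coinciding summits were the nearest among these peaks, at 4.57-fold in *tho* and 2.02-fold in *wt*. Its strongest peaks had their summits apart, at 55.0% of the gene in *tho* (6.14-fold) and at 17.8% in *wt* (2.11-fold). Over the whole class, *tho* peaks covered more bases than *wt* peaks in 83 of 163 genes and fewer in 76. By fold enrichment, *tho* gave the higher value in 118 of 163, but it is relative to a different untagged library in each strain. Peaks of nearly equal enrichment could also carry unequal q-values, as at *HSP104*, whose −log10 q was 24.8 in *tho* and 5.83 in *wt*. The highest enrichments held by both strains in this class, beside those of *SSA1*, were at *SSA4* and its neighbours *RTT105* and *NUP157*, which shared 1 *tho* peak (11.6-fold) and 1 *wt* peak (4.40-fold), and at the adjoining *EOS1* and *TPM1*, a tropomyosin gene, with 3.44-fold in *tho* and 3.04-fold in *wt*.

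**Figure D4:**
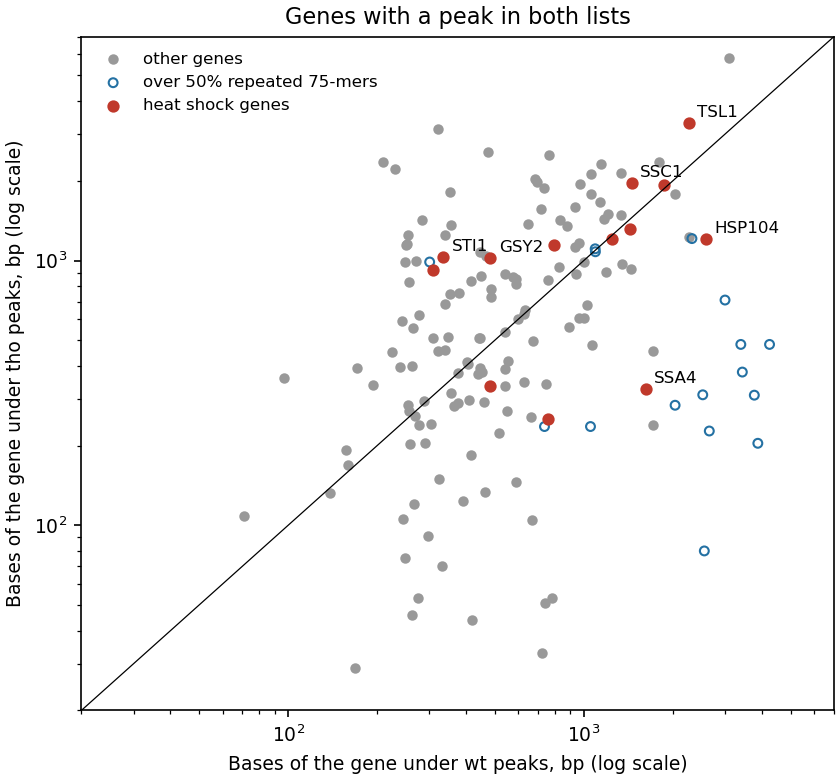
Bases of each of the 163 genes with a peak in both that lay under *tho* peaks (y axis, bp, log scale) and under *wt* peaks (x axis, bp, log scale), with the line of equal cover; red points are heat shock genes and open blue circles are the other genes of which over 50% of the 75-mers occur again in the genome (16 of 18, since *SSA1* and *SSA2* are drawn in red). Points lie above the line for 83 genes and below it for 76, and 14 of the 16 open circles lie below it.

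The other chaperone lists are small, and the shares of all genes to set beside their counts are 4.75% in *tho* only, 2.72% in both and 10.5% in *wt* only. Of the 8 subunits of the cytosolic chaperonin TRiC, which folds actin and tubulin, 4 had a peak in *wt* only (*CCT2*, *CCT4*, *CCT7* and *TCP1*) and 0 of 8 had a peak in *tho*, where 7.46% of all genes had one. These *wt* peaks had fold enrichments of 1.56 to 1.83 and covered 20.7 to 43.9% of the gene. Of 12 genes of Hsp90 and its co-chaperones, 4 had a peak in both, *CPR6* had one in *wt* only and 7 had none, and these 5 genes with a peak are also in the heat shock list. Of the 16 genes of the cytosolic Hsp70 system, 3 had a peak in *tho* only (*FES1*, *SSE1* and the Hsp40 gene *APJ1*), 3 in both and 4 in *wt* only, and 8 of these 10 genes are also in the heat shock list. *APJ1* was overlapped over 20.9% of its length by a *tho* peak of 331 bp with a fold enrichment of 1.80.

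The genes of trehalose and glycogen metabolism, 2 storage carbohydrates of stressed yeast, were found in all classes. Of 20, 5 had a peak in *tho* only (25.0%, against 4.75% of all genes), 4 in both (20%, against 2.72%), 2 in *wt* only (10.0%, against 10.5%) and 9 had none. Of the 11 with a peak, 4 (*TPS1*, *TPS2*, *GSY2* and *TSL1*) are also counted among the heat shock genes. Those of *tho* alone were *TPS1*, *TPS2*, the trehalase gene *NTH2*, *UGP1*, which makes the UDP-glucose that both pathways use, and the glycogen phosphorylase *GPH1*. The *tho* peaks ran past the stop codon in 4 of the 5 genes of *tho* alone, against 45.3% of that class, and in the 4 genes with peaks in both (*GSY1*, *GSY2*, *TSL1* and *GDB1*), against 61.3% of that class. In these 4 genes no *wt* peak did. *UGP1* (chromosome XI, 369891 to 371390, plus strand) was overlapped over 29.4% by a *tho* peak with a fold enrichment of 2.15, and its nearest *wt* peak was 18180 bp away. *NTH2* (chromosome II, 238941 to 241283, minus strand) had a *tho* peak of 404 bp with its summit at 92.7% of the gene. At *TSL1* (chromosome XIII, 70624 to 73920, plus strand), a *tho* peak of 7176 bp covered the whole gene with a fold enrichment of 21.8, and 2 *wt* peaks covered 68.5% with at most 2.36. The trehalase genes of *wt* alone, *NTH1* and *ATH1*, were covered to 27.6% and 13.6%, and their nearest *tho* peaks were 77600 and 11222 bp away.

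Regulators and signalling genes were divided among the classes. Of 23 transcription factors of stress responses, 3 had a peak in *tho* only (13.0%, against 4.75% of all genes), namely *HSF1* itself, *MIG1*, the glucose repressor, and *XBP1*, a repressor induced by stress. *XBP1* (chromosome IX, 175307 to 177250, minus strand) was covered to 77.8% by a *tho* peak of 2320 bp with an enrichment of 4.96-fold (−log10 q 138). *HSF1* (chromosome VII, 368753 to 371254, plus strand) was overlapped over its last 335 bp (13.4%) by a *tho* peak whose summit lay past the gene, with a fold enrichment of 2.20. Of the 23, *MGA2* had a peak in both (4.35%, against 2.72% of all genes), with 9.5% of the gene under the *tho* peak and 10.7% under the *wt* peak, and 5 factors had a peak in *wt* only (21.7%, against 10.5%). Of 25 mating genes, *STE20*, *ASG7* and *PRM1* had a peak in *tho* only (12.0%, against 4.75%), *FUS3* had one in *wt* only (4%, against 10.5%) and 21 had none. *STE20*, a kinase of the pheromone pathway, had 1833 bp (65.0%) under a *tho* peak whose summit lay before the start codon, and *ASG7* had 479 bp (76.0%) under one.

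Genes with the highest fold enrichments in *tho* only owed their class to wide peaks centred elsewhere. *ERP2* lay under the 4227 bp *tho* peak of *SSA1* (fold enrichment 24.8), *CAC2*, *CUE4* and YML100W-A under that of *TSL1* (21.8), and *GDH3* and *BDH2* under the 5839 bp peak of *BDH1* (11.4), each with the summit outside the gene. In all, 45 of the 285 genes shared a *tho* peak with a gene that had peaks in both, and 36 had a *tho* peak that overlapped a *wt* peak outside the gene, whereas 3 of the 629 *wt*-only genes did either. By covered bases the leading genes of *tho* alone were *PHM7* with 1906 bp, *INA1* with 1863 bp, *STE20*, *PTK1*, a putative protein kinase, with 1777 bp, *TPS2* with 1655 bp and *RET2*, a coatomer subunit, with 1608 bp. *PHM7* (chromosome XV, 162356 to 165331, plus strand) was overlapped over its 3′ part, with a fold enrichment of 3.31, and its nearest *wt* peak was 6224 bp away. *INA1* was covered to 91.9%, but a *wt* peak stood 253 bp from it.

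Most genes with a peak adjoined a gene without one, 76.5% of those with a peak in *tho* only and 93.3% of those with a peak in *wt* only, against 94.9% of all genes. Of the 285 genes with a peak in *tho* only, 111 (38.9%) adjoined another of the same class, against 8.83% of all genes, and 75 (26.3%) a gene with peaks in both, against 300 of all 6002 genes. A single *tho* peak over several genes puts neighbours in the same list. Of the 629 genes with a peak in *wt* only, 168 (26.7%) adjoined another of the same class, against 19.8% of all genes, and 39 (6.20%) a gene with peaks in both. The nearest *wt* peak was a median of 2191 bp (exact 95% interval 1839 to 2719 bp) from genes with a peak in *tho* only, and 5877 bp from genes without any peak. The nearest *tho* peak was a median of 6803 bp (5586 to 8006 bp) from genes with a peak in *wt* only, and 11659 bp from genes without any peak. Within 500 bp, genes with a peak in *tho* only had a *wt* peak at their 3′ side in 10.9% and at their 5′ side in 5.26%, whereas genes with a peak in *wt* only had a *tho* peak at their 3′ side in 4.29% and at their 5′ side in 9.06%. Chromosome I held the largest share of genes in each class, with 9.57% in *tho* only, 7.45% in both and 17.0% in *wt* only of its 94 genes, and chromosome XI the smallest share under any peak.

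Of 21 genes of glycolysis and ethanol formation, 7 had a peak (33.3%, against 17.9% of all genes), and of 14 alcohol, aldehyde and butanediol dehydrogenase genes 4 did (28.6%). In the glycolytic list, *ADH1* had a peak in *tho* only, the sugar kinases *GLK1* and *HXK1* had peaks in both, and *TPI1*, *PFK1*, *PFK2* and *ENO2* in *wt* only. *GLK1* lay whole under a *tho* peak of 4116 bp (fold enrichment 3.08), and 80.1% of it under a *wt* peak (1.71). The *ADH1* peak covered 340 bp (32.5%) at the 3′ end with its summit past the gene, and 11.8% of the 75-mers of *ADH1* occur again in the genome. Of 27 oxidant defence genes, *TRX2*, a cytosolic thioredoxin, was the member with a peak in *tho* only (3.70%, against 4.75% of all genes), and it was covered whole, with a fold enrichment of 3.76.

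Genes with a peak in *wt* only included many long or subtelomeric ones. Of 20 genes chosen for very large proteins, none had a peak in *tho* only (against 4.75% of all genes), 6 had peaks in both (30.0%, against 2.72%; *IRA1*, *IRA2*, *TOM1*, *FAS1*, *FAS2* and *VPS13*) and 8 had one in *wt* only (40.0%, against 10.5%). *FKS1*, the glucan synthase of the cell wall, had 3 *wt* peaks over 2675 bp (47.5%) and a *tho* peak 494 bp away. *ACC1*, the acetyl-CoA carboxylase, had 4 *wt* peaks over 2073 bp, *SEN1*, a helicase that resolves R-loops, 4 over 2064 bp, and *TRA1*, a subunit shared by histone acetyltransferase complexes, 5 over 1736 bp. The highest fold enrichment of the class was that of *FAB1*, a phosphoinositide kinase, at 3.25, with the summit past the gene and a *tho* peak 109 bp away. Of 34 nucleoporin genes, *NUP188* had a peak in *tho* only (2.94%, against 4.75% of all genes), *NUP157* and *NUP2* in both (5.88%, against 2.72%) and 9 in *wt* only (26.5%, against 10.5%). The *tho* peaks covered 3.08% of *NUP188* and 3.47% of *NUP2*, with their summits before the start codon. They covered 56.4% of *NUP157*, where the strongest had its summit past the gene. Of 16 genes of THO, TREX-2 and mRNA export, *YRA1*, *NPL3*, *NAB2* and *MEX67* had a peak in *wt* only (25.0%, against 10.5% of all genes) and the other 12 had none, among them *THO2*, *HPR1*, *THP2* and *TEX1*. *MFT1* and *NIC96* had no peak, so the calls say nothing of the deletion or the tagged gene.

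Within 20000 bp of a chromosome end lay 5.61% of the genes with a peak in *tho* only, 12.3% of those with a peak in both and 11.0% of those with a peak in *wt* only, against 4.10% of all genes. Seripauperins, a family of cell wall mannoproteins encoded mainly in subtelomeres, had 15 of 24 genes in *wt* only (62.5%, against 10.5% of all genes), *PAU17* in both (4.17%, against 2.72%) and none in *tho* only (against 4.75%). The *tho* peak over *PAU17* had its summit in *SSA2*. Among those of *wt* only, repeated 75-mers made up 100% of *PAU1*, *PAU6*, *PAU9*, *PAU18*, *PAU21* and *PAU22*. They made up 72.8 to 74.0% of *PAU10*, *PAU15* and *PAU16*, and 0 to 41.5% of *PAU4*, *PAU7*, *PAU8*, *PAU20* and *PAU24*. *PAU19* (chromosome XIII, 922641 to 923015, plus strand) was covered whole by a *wt* peak with a fold enrichment of 2.83, and 59.8% of its 75-mers are repeated. The 8 YRF1 helicase genes of the telomeric Y′ elements all had peaks in both (100%, against 2.72% of all genes). Their cover was unequal, with 80 to 1079 bp of the gene under *tho* peaks and 1094 to 3876 bp under *wt* peaks. At *YRF1-3* and *YRF1-8* the peaks of the 2 lists shared no base of the gene. The *tho* peak over *YRF1-3* had its summit before the start codon. Between 97.0 and 100% of the 75-mers of these 8 genes occur again in the genome, so reads cannot be assigned to 1 copy. Over 50% of the 75-mers were repeated in 3.86% of the *tho*-only genes, 11.0% of those of both, 7.47% of the *wt*-only genes and 4.15% of all genes. Without peaks made mostly of such sequence, 4.20% of the genes of both lists and 5.67% of the *wt*-only genes lay near a chromosome end. The cell wall list of 44 genes had *CIS3*, *FIT2* and *FIT3* in *tho* only (6.82%, against 4.75% of all genes), 8 genes in both (18.2%, against 2.72%), among them the flocculins *FLO1*, *FLO9*, *FLO10* and *FLO11*, and 10 in *wt* only (22.7%, against 10.5%), among them the flocculin *FLO5*. Repeated 75-mers made up 52.8% of *FLO9*, 43.8% of *FLO1*, 22.5% of *FLO5*, 21.8% of *FLO11* and 9.05% of *FLO10*. *CIS3* lay under a *tho* peak with its summit in its neighbour *HSP150*. The *tho* peaks over *FIT2* and *FIT3* covered 17.1% and 24.6% of these genes, with their summits before the start codon.

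Of 138 cytosolic ribosomal protein genes, 11 had a peak (7.97%, against 17.9% of all genes): none had a peak in *tho* only, *RPS0A* had peaks in both, with 5.77% of it under the *tho* peak, and 10 had a peak in *wt* only (7.25%, against 10.5%). Of 93 genes annotated to mitochondrial translation, 3 had a peak in *tho* only (3.23%, against 4.75% of all genes) and 1 in *wt* only (1.08%, against 10.5%). Of 43 translation factors, 10 had a peak (23.3%, against 17.9% of all genes): *ANB1* and *SUI3* had one in *tho* only, *SUP35* in both and 7 in *wt* only (16.3%, against 10.5%). *YEF3*, a translation elongation factor, was one of these 7, with 489 bp (15.6%) under a *wt* peak with a fold enrichment of 1.58. None of 10 histone genes and 0 of 24 sugar transporter genes had a *tho* peak (against 7.46% of all genes), and 4 of the sugar transporter genes had a *wt* peak (16.7%, against 13.2%). *ACT1* had no peak.

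**Figure D5:**
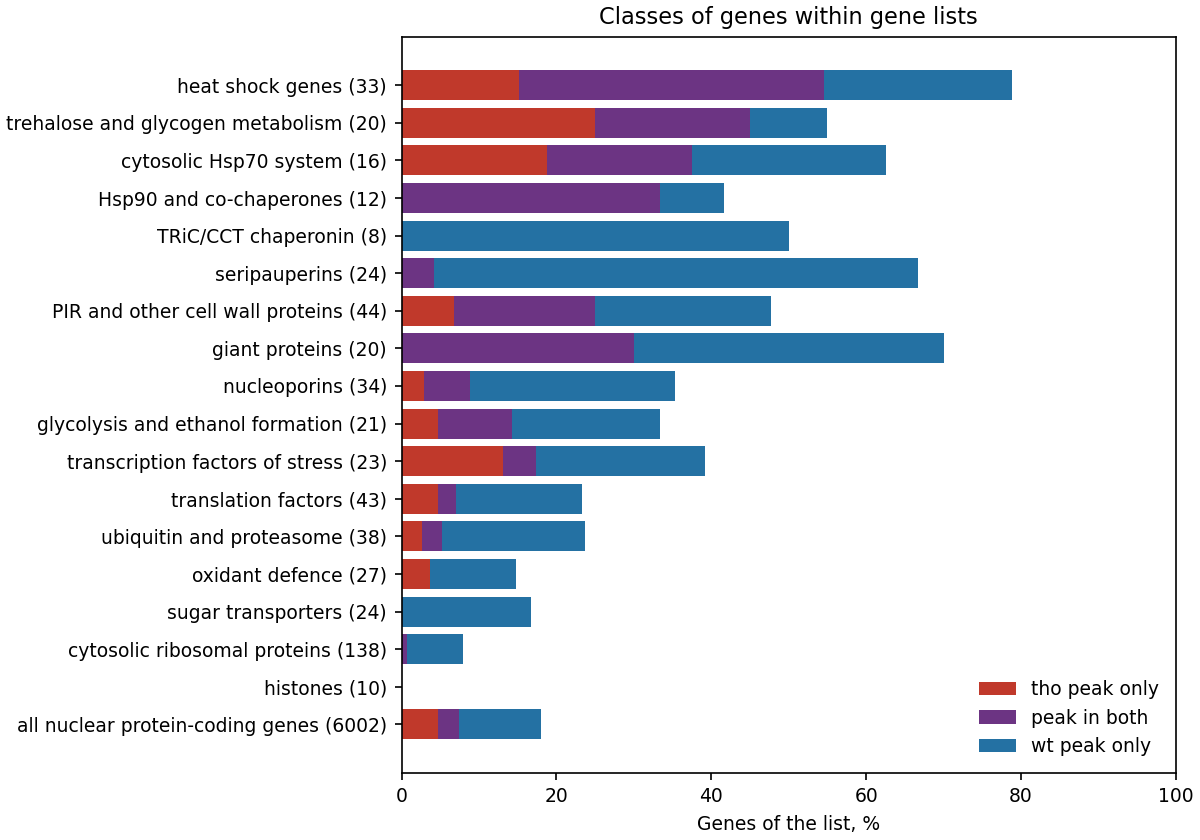
Share of the genes of each list (y axis, with the number of genes) that had a peak in *tho* only, in both or in *wt* only (x axis, %), stacked in that order, with all nuclear protein-coding genes in the lowest bar. Heat shock genes reach 78.8% in all and trehalose and glycogen genes have the largest *tho*-only share (25.0%), against 17.9% and 4.75% of all genes.

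Introns were found in 1 of 285 genes with a peak in *tho* only (0.351%, exact 95% interval 0.00888 to 1.94%), in 10 of 163 with peaks in both (6.13%) and in 19 of 629 with a peak in *wt* only (3.02%), against 271 of 6002 genes (4.52%). The gene of *tho* alone was *MAY24*, and 7 of the 10 of both were made mostly of repeated 75-mers. Ribosomal protein genes make up 89 of the 271, and the median length of genes with introns is 874 bp. The part of function and length in these shares was not tested. The GC content had a median of 41.4% in genes with a peak in *tho* only, 41.9% in those with peaks in both and 40.7% in those with a peak in *wt* only, against 39.7% in all genes. A convergent neighbour at the 3′ side was present for 46.3% (*tho* only), 43.6% (both) and 49.4% (*wt* only) of the genes, and for 51.3% of all genes. A tRNA gene lay within 500 bp of 5.61% (*tho* only), 5.52% (both) and 3.97% (*wt* only), against 4.67% of all.

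The calls near the threshold were examined in both lists. The lowest −log10 q of a member gene was 1.305 in *tho*, at YOL085C, and 1.304 in *wt*, at *TEC1*, *PKH1* and *POT1*. Just below the threshold were *SWR1*, *IOC3* and *BRR6* at 1.275 in *tho*, and *DLD3* and *ZDS1* at 1.263 in *wt*. When the peaks of larger q that the authors also deposited were admitted, 29 of the 285 genes with a peak in *tho* only had one in *wt* too, and 11 of the 629 with a peak in *wt* only had one in *tho* too. At q under 0.01, 263 of the 285 genes remained in *tho* only and 396 of the 629 in *wt* only, the other 22 and 233 having no peak left. In *wt* only, 37.0% of the genes thus rested on q-values between 0.01 and 0.05, and in *tho* only 7.72%.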

How the data were processed

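ChIP-seq of myc-tagged Nic96 was analysed from 2 of the 6 samples of the series, the tagged *tho* and *wt* libraries at 37 °C. The untagged libraries and those at 25 °C are not analysed here on their own. The authors kept perfect Bowtie2 matches of the reads to sacCer3 (R64), dropped duplicates by SAMTools rmdup and ran MACS2 for narrow peaks, the control being the untagged strain of like genotype and temperature. The submitters' processing notes also name deepTools 3.3.2. The deposited fold enrichment is a ratio of tagged to untagged signal at the summit. The authors' lists further hold −log10 values of the p-value and of the q-value by MACS2, and the score column is, as deposited, a whole number. The lists hold no read numbers: depth is unknown, and a single peak has no stated precision.

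The study's methods set the q-value at 0.05, yet peaks of larger q-values stand in the lists, and these (56 in *tho*, 255 in *wt*) and mitochondrial peaks (37 in *tho*) were set aside. Starts, deposited on a count from 0, are given counted from 1. All 6002 annotated nuclear protein-coding genes span start to stop codon. Shares carry exact binomial (Clopper-Pearson) intervals and medians exact order-statistic intervals, both at the 95% level, which cover counting of genes only. No test compares the strains, since each is 1 library.

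Gene lists (24 named lists and 27 gene ontology processes, of which translation and cell cycle matched no gene) and the members were chosen with earlier results of these data known. Genes named are the 6 per class with the highest fold enrichment and the 6 with the most covered bases (in both, by the lower of the strains), members of the lists, the genes at the threshold, *HSP104*, *GSY2*, *PAU17*, *SSA4*, *YEF3* and *ACT1*, which the study assayed singly, and *MFT1*, *NIC96* and the THO genes. Others are said to be chosen after their values were seen, and also *MAY24*. A gene's repeated share is that of its 75-mers found again in the genome. Alternatives covered the q-value threshold, the overlap rule, repeats, chromosome ends and tRNA genes. Tools were scipy 1.17.1, numpy 2.4.6 and pandas 2.3.3 under Python 3.11.15, with matplotlib 3.10.9 for plots, and the class assignment was tested on simulated peaks.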

Additional observations from a re-analysis of the deposited data

Results flagged for a closer look

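A total of 37 *tho* peaks with a q-value under 0.05 lay on the mitochondrial chromosome, where *wt* had 0, and they stand outside the comparison of nuclear genes. Among nuclear peaks, 167 of 571 in *tho* (29.2%) and 74 of 993 in *wt* (7.45%) overlapped no protein-coding gene and so contributed to no class.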

How the results depend on the processing

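Over 17 results and 10 alternative settings, 142 of 167 values stayed within 1.5 times the count, or within the 95% interval of the share or median, and 25 did not. The share of *tho* genes that also had a *wt* peak was 41.6% with all deposited peaks, 30.9% at q under 0.01, 26.9% when 20% of the gene had to be overlapped, and 27.2% when the *wt* list was limited to the number of *tho* peaks, an alternative chosen after seeing the data. In the same settings after the first, genes with a *wt* peak only numbered 402, 384 and 339. With 20% of the gene overlapped, 80 genes had peaks in both, median lengths were 927 bp (*tho* only), 1760 bp (both) and 1358 bp (*wt* only), the shares near chromosome ends were 3.23%, 6.25% and 18.5%, and the last 100 bp were reached in 85.0% (both, *tho* peaks), 42.5% (both, *wt* peaks) and 34.9% (*wt* only) of genes. With the summit inside the gene, 171 genes had a *tho* peak only, and median lengths were 1308 bp (*tho* only) and 2643 bp (both). With genes extended by 200 bp, the last 100 bp were reached in 50.7% (*tho* only) and 60.8% (both, *tho* peaks). Shares near chromosome ends were 4.20% (both) and 5.67% (*wt* only) without repeated peaks, and 14.5% (*wt* only) with the limited *wt* list. Heat shock shares moved by less than their intervals in every setting.

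No paired analysis was possible because each strain gave 1 library, and for the same reason no alternative left out a replicate.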
